A study of Homo sapiens with 3 samples.

Results

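The genes of cholesterol synthesis, sterol uptake and their control by the SREBP transcription factors were read in MCF10A, a human cell line from breast epithelium that grows without limit but does not form tumors. The group holds 30 genes, chosen by name from the pathway and found by Ensembl identifier in GENCODE release 44, of the 62754 genes in the table. It comprises 20 enzymes of the pathway, 5 genes of SREBP control and 5 genes of sterol uptake, transport and storage. All 3 replicates were empty vector (EV) cells, carrying a retroviral doxycycline-inducible vector without an insert and selected with puromycin, and received neither doxycycline nor any other treatment. They were grown in DMEM/F12 with supplements for mammary epithelial cells. They belong to 1 condition and 1 batch, so that no comparison between groups was possible and every comparison is between genes or between replicates. The labels do not say that the replicates came from separate cultures, so the spread between them may be technical.

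Cholesterol is built in the endoplasmic reticulum from acetyl-CoA, through mevalonate, the isoprenoid pyrophosphates, squalene and lanosterol. When sterols in that membrane are low, the escort protein SCAP carries SREBP precursors to the Golgi, where they are cut and release transcription factors that raise the genes of the pathway. When sterols are high, INSIG proteins hold SCAP back in the endoplasmic reticulum. Epithelial cells that divide need sterols for new membranes and isoprenoids for the prenylation of proteins. Steps whose enzymes are not among the 30 genes are not analysed here.

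Expression is given in TPM, the reads of a gene per base of its length scaled to a common total, so that levels can be set against each other between genes. Totals of 15273329, 15446347 and 11166546 reads lay on annotated genes in replicates 1, 2 and 3, and a single gene of the group had between 45 and 11287 reads in a replicate. All 8 epithelial markers fixed for the check, KRT5, KRT14, KRT17, KRT6A, TP63, CDH1, LAMB3 and ITGB4, were at or above 10 TPM. Of 7 markers of other cell types, DCN, COL1A1 and PECAM1 were above 1 TPM with means of 9.05, 4.96 and 1.77 TPM, PTPRC, VWF and COL3A1 were below 0.1 TPM and ADIPOQ was at 0. Their summed level lay between 15.3 and 16.5 TPM in the replicates, and their part in the levels below was not tested. In bulk RNA, fewer cells that express a gene and less RNA per cell cannot be told apart.

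All 30 genes had a mean at or above 1 TPM, the cutoff that the study used to call an enzyme expressed, and all 30 were above it in every replicate. By the mean, 24.9% of all 62754 genes were at or above this cutoff, and of the 20046 protein-coding genes 56.7%. A mean of at least 10 TPM was reached by 26 of the 30 genes, against 41.7% of protein-coding genes, and a mean of at least 100 TPM by 17 of them, against 7.86%. The median gene of the group stood at the 93.8th percentile of the protein-coding genes, the median enzyme at the 95.8th. The whole group summed to 5491, 5292 and 5074 TPM in replicates 1, 2 and 3.

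**Figure D1:**
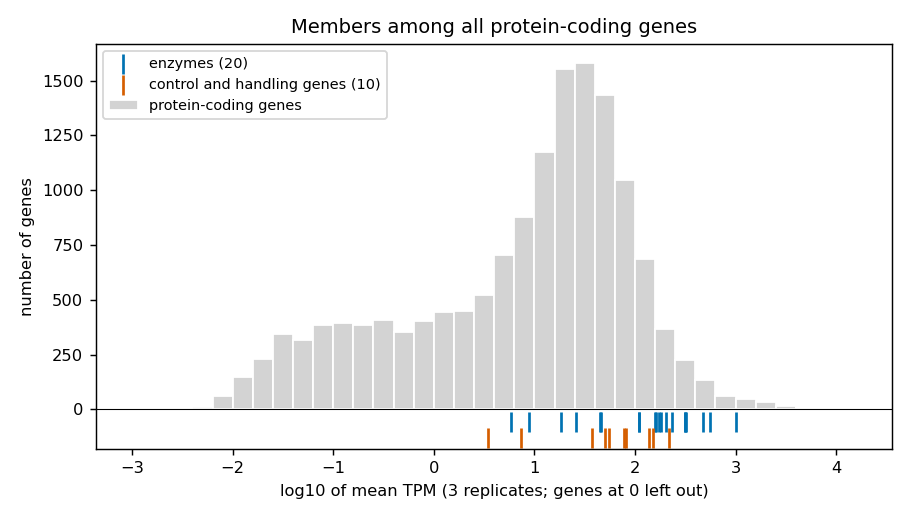
Grey bars give the number of protein-coding genes by log10 of the mean TPM over 3 replicates, with genes at 0 left out, and the ticks under the bars mark the 20 enzymes (blue) and the 10 control and handling genes (orange). The enzymes lie mostly to the right of the peak of the grey bars, with FDPS at 1011 TPM the farthest right and CYP51A1 at 5.85 TPM the farthest left of the blue ticks.

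The mevalonate steps begin with ACAT2, the cytosolic thiolase that joins acetyl-CoA units, and HMGCS1, the synthase that adds the next acetyl group. ACAT2 (ENSG00000120437, chromosome 6, 159762045 to 159779112 of hg38) was the highest of these steps at 326, 289 and 324 TPM in replicates 1, 2 and 3. HMGCS1 was measured at 246, 214 and 244 TPM. Both were lowest in replicate 2, and ACAT2 was above HMGCS1 in every replicate. MVK (ENSG00000110921, chromosome 12, 109573255 to 109598125), which phosphorylates mevalonate, was the lowest of these steps at 47.5, 51.3 and 40.1 TPM. The kinase that follows it, PMVK, had a mean of 109 ± 19.1 TPM (SD, n = 3), and MVD, which decarboxylates the product to isopentenyl pyrophosphate, 172 ± 6.23 TPM (SD, n = 3). PMVK had the widest spread between replicates of the whole group, an SD of 0.27 on the log2(TPM + 1) scale, and its lowest value of 86.8 TPM was in replicate 3.

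The isoprenoid steps held the highest gene of the group. FDPS (ENSG00000160752, chromosome 1, 155308748 to 155320666), the synthase that makes farnesyl pyrophosphate at the branch point between sterols and other isoprenoids, was measured at 1009, 1034 and 988 TPM. It ranked 107th among protein-coding genes and held 22.6% of the TPM of the 20 enzymes. IDI1, the isomerase before it, stood at 192, 166 and 189 TPM, and thus lower in every replicate than FDPS. GGPS1 (ENSG00000152904, chromosome 1, 235327350 to 235344532), which extends farnesyl to geranylgeranyl pyrophosphate for protein prenylation, was at 21.3, 15.3 and 18.4 TPM. The synthases on the 2 sides of the farnesyl branch point, FDFT1 toward sterols and GGPS1 toward geranylgeranyl groups, thus lay at a mean of 556 and 18.3 TPM. Of the canonical transcript of GGPS1, 26.1% also belongs to exons of ENSG00000285053, on the same strand.

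FDFT1, squalene synthase, was measured at 575, 562 and 530 TPM. SQLE, the squalene epoxidase that takes the first oxygen-dependent step and is known as a rate-limiting enzyme, followed at 494, 465 and 452 TPM. LSS, which folds the epoxide into lanosterol, was the lowest of the 3 at 168, 175 and 141 TPM. In every replicate the order was FDFT1, SQLE and LSS. All 3 were lowest in replicate 3, as were 84.3% of protein-coding genes averaging 10 TPM or more.

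From lanosterol to cholesterol the 9 enzymes ranged from 5.85 to 324 TPM. The highest was MSMO1, the oxidase that attacks the methyl groups of the sterol ring, at 345, 293 and 334 TPM. DHCR7, the reductase that makes cholesterol from its direct precursor in one branch, was at 326, 341 and 286 TPM, and the order of both genes was not the same in every replicate. NSDHL and HSD17B7, which act with MSMO1 on the same methyl groups, had mean levels of 109 ± 1.23 and 26 ± 1.98 TPM (SD, n = 3 each). NSDHL had the smallest spread of the group, with an SD of 0.016 on the log2(TPM + 1) scale. The isomerase EBP and the desaturase SC5D, which move and add ring double bonds, had mean levels of 157 ± 9.81 and 45.3 ± 4.81 TPM (SD, n = 3 each).

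**Figure D2:**
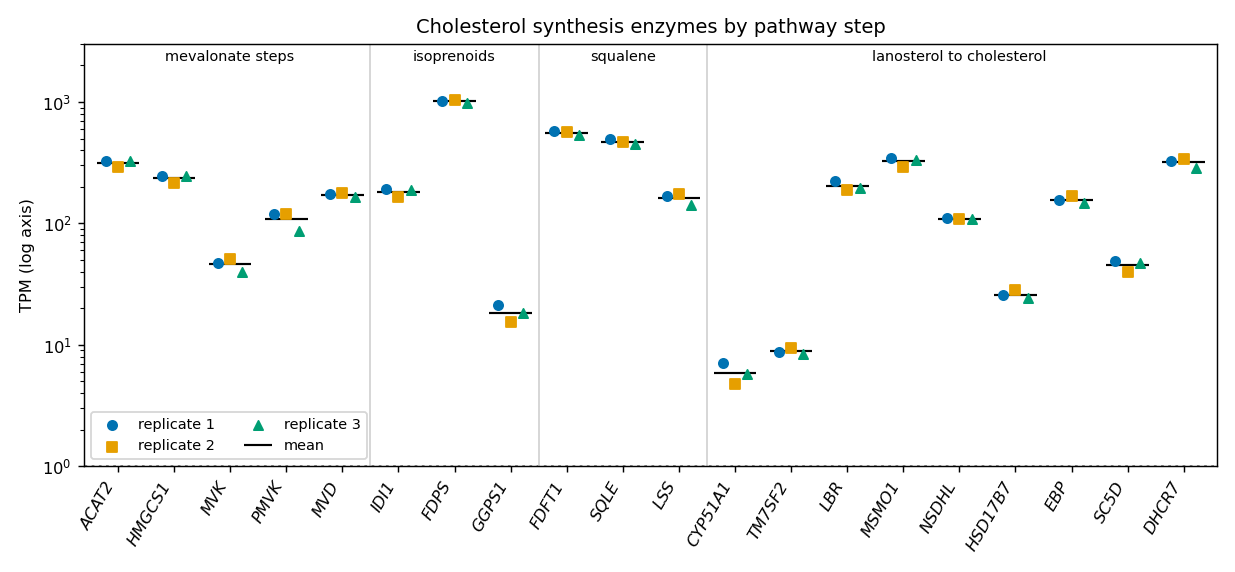
TPM on a log axis of the 20 enzymes in pathway order, with 1 point for each of replicates 1 to 3 and a line at the mean, and grey lines between the step groups. FDPS near 1011 TPM stands highest, and GGPS1, CYP51A1 and TM7SF2 stand lowest at 18.3, 5.85 and 8.85 TPM.

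CYP51A1 and TM7SF2 were the lowest enzymes. CYP51A1 (ENSG00000001630, chromosome 7, 92084987 to 92134803), the demethylase of lanosterol, was listed at 7.06, 4.75 and 5.74 TPM from 117, 81 and 81 reads. Of its canonical transcript of 3155 bases, 90.1% is shared with exons of ENSG00000285772 and ENSG00000289027 on the same strand, which had 0 and 16 reads in all replicates together. Divided by the 311 bases that are not shared, the reads of CYP51A1 gave 71.4, 48.1 and 58.1 on the TPM scale. The same division gave a mean of 364 in place of 157 for EBP, with 57.1% shared, and 24.8 in place of 18.3 for GGPS1. These values hold only if reads on shared bases went to no gene, which the table does not state. The place of CYP51A1 in the order of levels thus depends on how shared reads were counted. Without it the difference between the highest and the lowest enzyme rests on FDPS and TM7SF2 and is 6.68 on the log2(TPM + 1) scale against 7.22 with it.

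**Figure D3:**
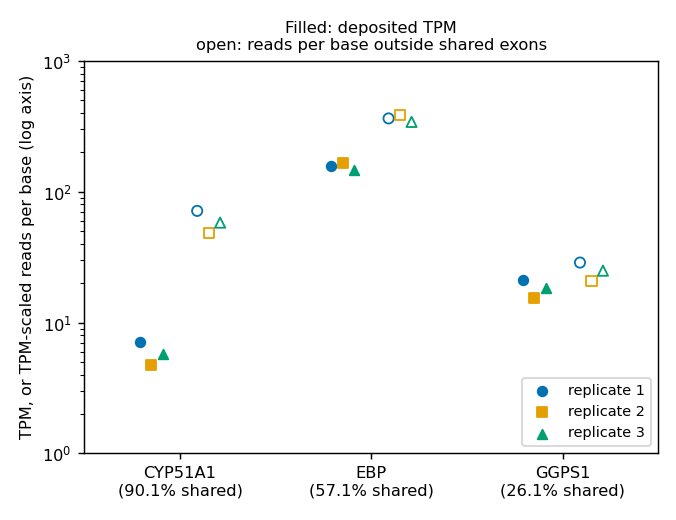
For the 3 enzymes with over 20% of the canonical transcript shared with genes on the same strand, filled points give the deposited TPM and open points the reads per base outside the shared exons on the same scale, by replicate and on a log axis. CYP51A1 moves from a mean of 5.85 to 59.2, EBP from 157 to 364 and GGPS1 from 18.3 to 24.8.

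The reduction of the sterol double bond left by CYP51A1 can be made by LBR or by TM7SF2. LBR (ENSG00000143815, chromosome 1, 225401502 to 225428925), also known as the receptor that anchors chromatin to the inner nuclear membrane, was measured at 225, 190 and 194 TPM. TM7SF2 (ENSG00000149809, chromosome 11, 65111845 to 65116384) was measured at 8.73, 9.38 and 8.45 TPM from 96, 106 and 79 reads. The levels do not overlap, and LBR was 23.0 ± 2.77 times as high (SD, n = 3), or 4.37 ± 0.17 on the log2(TPM + 1) scale. As for all pairs of genes here, the exact sign-flip permutation test over 3 replicates gave p = 0.25 (two-sided), the smallest it can give, with the same direction in 3 of 3 replicates.

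Of the 5 control genes, INSIG1 was the highest and INSIG2 the lowest. INSIG1 (ENSG00000186480, chromosome 7, 155297776 to 155310235), the sterol sensor that is itself a known SREBP target, was measured at 220, 215 and 216 TPM. INSIG2 (ENSG00000125629, chromosome 2, 118088452 to 118110997), its paralog, was measured at 8.06, 6.49 and 7.71 TPM from 151, 125 and 123 reads. INSIG1 was thus 29.5 ± 3.18 times as high (SD, n = 3), a difference of 4.70 ± 0.13 on the log2(TPM + 1) scale with the same direction in 3 of 3 replicates. The counting error alone gave 95% exact Poisson intervals for INSIG2 from 6.82 to 9.45 TPM in replicate 1 and from 6.41 to 9.20 TPM in replicate 3, which do not reach INSIG1.

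SREBF2 (ENSG00000198911, chromosome 22, 41833105 to 41907306) encodes the SREBP best known for cholesterol genes and SREBF1 (ENSG00000072310, chromosome 17, 17810399 to 17837002) the one best known for fatty acid genes. SREBF2 was measured at 147, 145 and 118 TPM and SREBF1 at 83.2, 91.3 and 67.2 TPM. SREBF2 was 1.70 ± 0.0979 times as high (SD, n = 3), with a difference of 0.76 ± 0.083 on the log2(TPM + 1) scale in 3 of 3 replicates. The table sums the transcripts of a gene, so that the isoforms of SREBF1 were not told apart. SCAP, at 86.2, 84.2 and 63.5 TPM, stood at 0.36 ± 0.056 times the level of INSIG1 (SD, n = 3), and the difference between SCAP and SREBF1 was smaller than its spread between replicates.

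**Figure D4:**
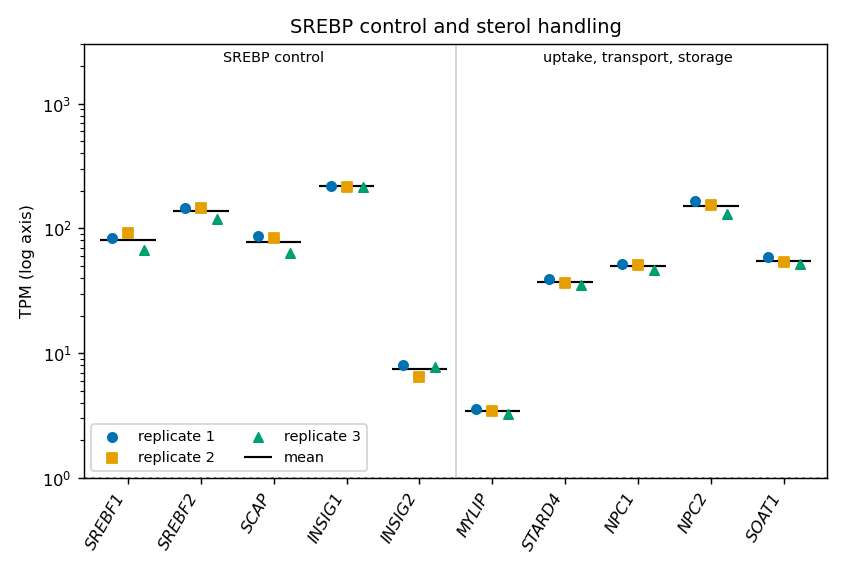
TPM on a log axis of the 5 genes of SREBP control and the 5 of sterol uptake, transport and storage, with 1 point for each of replicates 1 to 3 and a line at the mean. INSIG1 at 217 TPM and INSIG2 at 7.42 TPM are the highest and the lowest of the control genes, and MYLIP at 3.43 TPM is the lowest of all.

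The promoters of these genes were read for letters that SREBP and its partners are known to bind. RefSeq windows from 250 bases before to 50 after a start (GRCh38.p14) were found for 27 of the 30 genes, and not for ACAT2, FDFT1 and SQLE. The 250 bases before the start were searched on both strands. The sterol regulatory element in its classical form of 10 bases, the first run of capitals in SREBF2 as printed, was found in 1 gene of the group, SREBF2, at 134 bases before the start, in 0.0342% of all 35116 windows and in 0.0432% of the 6945 protein-coding genes with a window and at least 10 TPM, where 1 window of a gene was enough. The looser form CACNCCAC, which is contained in the first, was found in SREBF2, INSIG1, IDI1 and SC5D, 14.8% of the 27 genes, against 6.24% of these protein-coding genes and 4.87% of windows. The E-box form TCACGTGA was found in INSIG1, in a stretch that is annotated as untranslated exon and is not printed, which is 3.7% of the 27 genes, against 2.38% of these protein-coding genes and 0.854% of windows. The stretches of both INSIG genes and of SREBF2 are shown since they carry these letters or lack them, with those of HMGCS1 and FDPS as enzymes for comparison. Each is printed 5′ to 3′ on the strand of the gene without annotated untranslated exons, and capitals mark the sterol element forms and CCAAT, which reads ATTGG on the other strand.
SREBF2 lies at chr22:41832855-41833104 on the plus strand, INSIG1 at chr7:155297628-155297775 on the plus strand and INSIG2 at chr2:118088221-118088451 on the plus strand.
SREBF2: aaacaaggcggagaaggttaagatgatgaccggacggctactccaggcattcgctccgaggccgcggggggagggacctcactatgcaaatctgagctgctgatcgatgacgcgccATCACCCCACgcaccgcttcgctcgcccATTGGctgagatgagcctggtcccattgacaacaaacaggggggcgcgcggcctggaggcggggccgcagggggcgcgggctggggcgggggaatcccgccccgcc
INSIG1: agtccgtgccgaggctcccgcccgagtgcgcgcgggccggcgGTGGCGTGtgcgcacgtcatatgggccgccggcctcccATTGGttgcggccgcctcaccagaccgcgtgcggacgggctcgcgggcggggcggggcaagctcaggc
INSIG2: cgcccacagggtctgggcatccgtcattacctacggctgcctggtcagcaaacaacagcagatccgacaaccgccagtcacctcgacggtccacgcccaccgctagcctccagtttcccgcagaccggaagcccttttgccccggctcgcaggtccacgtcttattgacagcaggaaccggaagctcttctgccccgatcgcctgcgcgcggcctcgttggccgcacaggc
HMGCS1 lies at chr5:43313513-43313662 on the minus strand and FDPS at chr1:155308616-155308747 on the plus strand.
HMGCS1: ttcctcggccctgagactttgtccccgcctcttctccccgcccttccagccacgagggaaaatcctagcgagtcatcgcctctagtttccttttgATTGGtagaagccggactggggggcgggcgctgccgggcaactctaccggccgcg
FDPS: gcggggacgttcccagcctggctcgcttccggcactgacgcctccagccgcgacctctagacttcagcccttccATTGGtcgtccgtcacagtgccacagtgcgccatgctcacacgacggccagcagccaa

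In the printed run of SREBF2 the sterol element is followed by ATTGG, in INSIG1 the looser form is followed by ATTGG, and the run of INSIG2 holds none of these letters. CCAAT, the core bound by NF-Y, a factor known to act beside SREBP, was found in 20 of the 27 genes, 74.1%, and in 14 of the 17 enzymes with a window. It was found in 32% of all windows, and in 43.3% of these protein-coding genes. The enzymes without it were PMVK, LBR and CYP51A1, and the other genes SREBF1, SCAP, INSIG2 and NPC1. GGGCGG, the core of Sp1 sites, was found in 25 of the 27 genes, 92.6%, against 77.5% of these protein-coding genes. A match of letters is a description and not a bound site, and no binding was measured.

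Sterols that enter with lipoproteins leave the lysosome through NPC2, which binds cholesterol in the lumen, and NPC1, the membrane protein that takes it over. NPC2 (ENSG00000119655, chromosome 14, 74476192 to 74494177) was the highest of these genes at 165, 154 and 131 TPM. NPC1 (ENSG00000141458, chromosome 18, 23506184 to 23586506) was measured at 52.3, 51.1 and 46.7 TPM. NPC2 was 2.99 ± 0.178 times as high (SD, n = 3) and 1.56 ± 0.087 higher on the log2(TPM + 1) scale in 3 of 3 replicates. With the length of the canonical transcript, which is shorter for NPC2, this difference was 2.36 on the same scale.

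SOAT1, which esterifies cholesterol for storage, had a mean of 54.7 ± 3.67 TPM (SD, n = 3), and STARD4, a soluble carrier of sterols, 37 ± 2.08 TPM (SD, n = 3). The lowest gene of the group was MYLIP (ENSG00000007944, chromosome 6, 16129086 to 16148248), the ubiquitin ligase that removes lipoprotein receptors and is a known target of the oxysterol receptors LXR. It was measured at 3.59, 3.43 and 3.27 TPM from 58, 57 and 45 reads. In replicate 3 the 95% exact Poisson interval of MYLIP ran from 2.39 to 4.38 TPM, so its replicates differed by less than the counting error. All 5 of these genes were lowest in replicate 3. This was the common case in the table, shared by 84.3% of protein-coding genes averaging 10 TPM or more, a level that MYLIP did not reach.

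Ordered by the mean, the 30 genes form 29 neighbouring pairs. The order was taken from the same replicates, so the counts that follow describe it and do not test it. In 17 pairs the higher gene was higher in every replicate and by more than the SD of the difference, and in 12 pairs it was not. On the deposited scale the first 3 places, FDPS, FDFT1 and SQLE, were separated from their neighbours in this way. So were the last 6, HSD17B7, GGPS1, TM7SF2, INSIG2, CYP51A1 and MYLIP. This rule does not take counting error into account. The log2 difference of TM7SF2 from INSIG2 was 0.23 with an SD of 0.21, and their exact Poisson intervals overlapped in every replicate. Those of INSIG2 and CYP51A1 overlapped in every replicate as well. The order of TM7SF2, INSIG2 and CYP51A1 was thus not separated beyond counting error. Per base outside shared exons, CYP51A1 was at 59.2 and would leave the last 6. The place of HSD17B7 rests on the length used: with canonical lengths its mean was 42.9 TPM, above STARD4 at 30.2, SC5D at 36.9 and NPC1 at 40.8 TPM. MSMO1, DHCR7 and ACAT2, with means between 313 and 324 TPM, were not separated, nor was HMGCS1 from INSIG1 or INSIG1 from LBR. On the deposited scale the run of IDI1, MVD, LSS, EBP and NPC2, with means between 150 and 183 TPM, was also not separated from gene to gene. This run too rests on the length used. With canonical lengths EBP and LSS were at 128 and 131 TPM, IDI1 and MVD at 183 TPM and NPC2 at 214 TPM.

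Paralogs of the enzymes outside the group were read beside them. ACAT1, the mitochondrial thiolase, was measured at 143, 118 and 119 TPM, and ACAT2 was 2.49 ± 0.226 times as high (SD, n = 3), or 1.31 ± 0.13 higher on the log2(TPM + 1) scale in 3 of 3 replicates. IDI2, a paralog of IDI1, had 0 reads in every replicate. With 3 reads as the limit that a count of 0 allows, this corresponds to at most 0.495 TPM for IDI2 in the replicate with the highest limit. Intervals and limits cover counting error only.

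Annotated pseudogenes were looked up by the name of the gene, and were found for FDPS, IDI1, HSD17B7 and CYP51A1 only. Copies under other names were not sought. The 8 annotated pseudogenes of FDPS summed to 2.03 TPM, 0.2% of FDPS, and the 3 of IDI1 to 0.211 TPM. The 2 pseudogenes of HSD17B7 were at 0. The 3 of CYP51A1 summed to 2.04 TPM, which is 34.9% of the level listed for CYP51A1. How reads that match a gene and its pseudogene were assigned is not given in the sources used here. Antisense genes overlap 9 of the 30 canonical transcripts, with 36.3% of ACAT2, 46.7% of HMGCS1 and 41.4% of FDPS overlapped, and without strand in the counting such reads cannot be told apart.

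Other genes of the pathway were read from lists. The counts at or above 1 TPM stand beside 56.7% of the 20046 protein-coding genes at this cutoff. Of 12 genes that lead from isoprenoids to dolichol, coenzyme Q and protein prenylation, all 12 were at or above 1 TPM, from 6.36 TPM for FNTB, a subunit of farnesyltransferase, to 123 TPM for ICMT, the methyltransferase of prenylated proteins. Of FNTB, 61.3% also belongs to exons of CHURC1-FNTB. All 7 genes of SREBP cleavage and of the sterol-dependent degradation machinery were at or above 1 TPM, from 18.4 TPM for SPRING1 to 113 TPM for RNF145, with the proteases MBTPS1 and MBTPS2 at 92.7 and 28.6 TPM. Of 10 genes of sterol transport and lipoprotein receptors, 7 were at or above 1 TPM, the highest TMEM97 at 141 TPM and the lowest VLDLR at 0.166 TPM. Of 8 genes of oxysterols, LXR and sterol esters, 4 were at or above 1 TPM, the highest NR1H2, which encodes an LXR, at 35.7 TPM. SOAT2, CH25H and CYP7B1 had 0 reads in every replicate, with limits of 0.325, 0.396 and 0.0897 TPM. The medians of these 4 lists were 29.8, 79.1, 27.3 and 1.72 TPM, beside 123 TPM for the 30 genes.

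On the deposited scale the median spread between replicates of the 30 genes was below that of the wider sets of genes. The median SD of log2(TPM + 1) was 0.11 over the 30 genes and 0.19 over the 15632 annotated genes whose mean reached 1 TPM, and the 26 genes with at least 10 TPM stood at 0.11 against 0.16 for 8364 protein-coding genes at that level. No gene of the group exceeded 0.3. Without replicate 3 the median of the group was 0.066, and with median-of-ratios scaling it was 0.10. No such values were computed for the wider sets, which were not matched to the group for level. The part of replicate 3 and of level in this contrast was therefore not tested.

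Replicate 3, which held the fewest reads, stood apart from the others in the whole table. Of the 8364 protein-coding genes with at least 10 TPM, 84.3% were lower in replicate 3 than in both others, and so were 18 of the 26 genes of the group at that level and 11 of the 18 enzymes. Replicate 2 was the lowest for 12.2% of the protein-coding genes, and for 7 of the 18 enzymes. The median log2 difference of replicate 3 from the mean of replicates 1 and 2 was -0.23 over the protein-coding genes, -0.087 over the enzymes and -0.21 over the 8 control and handling genes. For the 26 genes of the group at this level it was -0.11, nearer to 0 than the median protein-coding gene. Over all 30 genes it was -0.089. Scalings that multiply every gene of a replicate by 1 factor move the group and the other genes together, so the sign of this median depends on the scaling.

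This difference moved with the GC content of the transcripts. Over the 8364 genes Pearson's r between GC content and the difference was -0.43 and Spearman's rho -0.49, and over the 26 genes of the group they were -0.71 and -0.67, correlations across genes that share the same 3 libraries. A trend with GC content was not particular to replicate 3. For the log2 difference of replicate 2 from replicate 1, r was 0.46 and rho 0.51 over the 8364 genes. Over the 26 genes of the group they were 0.725 and 0.78. A straight line of the replicate 3 difference on GC content was fitted over all 8364 genes. Of the 18 enzymes, 17 lay above it, against 46.8% of the protein-coding genes, with a median of 0.16 above the line. The exception was PMVK, 0.15 below it. Of the 8 control and handling genes, 4 lay above the line, with INSIG1 at 0.19 above it and SREBF2, SREBF1 and SCAP at -0.0062, -0.024 and -0.086. The furthest above were MVD, ACAT2, IDI1 and FDPS, by 0.26, 0.25, 0.25 and 0.24. The part of GC content, depth and library composition in these differences was not tested further, and with 1 library they cannot be told apart from a difference between cultures.

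**Figure D5:**
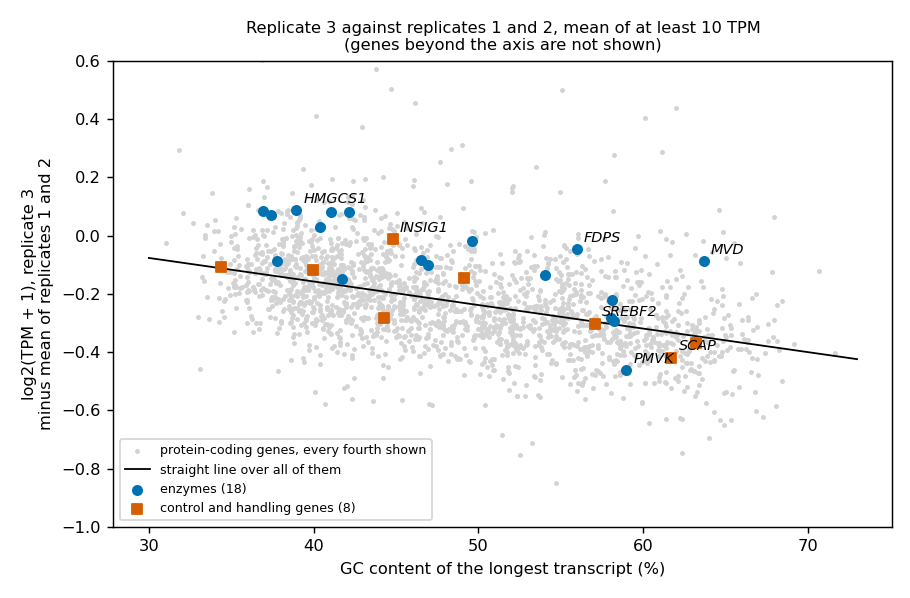
Each point is a gene whose mean reached 10 TPM, with the GC content of its longest transcript in percent on the x axis and log2(TPM + 1) in replicate 3 minus the mean of replicates 1 and 2 on the y axis, for protein-coding genes (grey, 1 in 4 shown), enzymes (blue) and control and handling genes (orange). The black line is the straight line over all 8364 genes, and 17 of 18 enzymes but 4 of 8 control and handling genes lie above it.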

How the data were processed

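RNA-seq libraries of 3 EV replicates were prepared by the authors from 300 ng of total RNA with depletion of ribosomal RNA. Seq2science was used by the authors for mapping to hg38 and for counting, and the submitters' processing notes name STAR, fastp, MultiQC and GRCh38.p14. The authors deposited TPM values of 62754 genes, not pooled, that sum to 1000000 in each replicate. Neither the annotation release nor the strand setting is given in the sources used here. Columns were matched to samples by library name, and 62700 genes were found in GENCODE release 44.

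TPM values were used as deposited. The product of TPM and length (longest transcript, less 1 base for each exon), divided by its smallest value above 0, gave whole numbers within 0.01 for 100% of genes, taken as reads. The same step returned 100% of simulated reads on 62700 genes. The simulated TPM was made with the same lengths, so this checks the calculation only. It cannot show that the authors used these lengths. Spread and differences used log2(TPM + 1). Shared bases were those of the canonical transcript in exons of other genes. With 1 condition, no test between groups was run, and pairs of genes were compared by an exact sign-flip permutation test. The genes and lists were chosen with earlier results of these data known, and every gene of the group is named. For each step group the highest and the lowest gene, the members of 6 pairs and genes below 10 TPM were given in every replicate; others were added where their order is described. The value of 1 gene of the lists is not reported here. Alternatives covered the cutoff, the scaling, the pseudocount, the length and leaving out each replicate. Tools were matplotlib 3.10.9, scipy 1.17.1, pandas 2.3.3, numpy 2.4.6 and Python 3.11.15.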

Additional observations from a re-analysis of the deposited data

How the results depend on the processing

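No paired comparison between conditions was possible because the 3 libraries share a single condition. Only pairs of genes were compared within each replicate. The count of 30 genes at or above 1 TPM stayed at 30 under every alternative tried, with cutoffs of 0.5 and 2 TPM included. The lowest gene, MYLIP, had at least 3.27 TPM in every replicate and 2.80 TPM with canonical lengths. These cutoffs and leaving out a replicate therefore could not change the count. The median percentile of 93.8 was 98.0 among all genes, 91.9 among genes with at least 1 TPM, 94.2 with the median of the replicates, 92.7 with canonical lengths and between 93.8 and 94.1 with 1 replicate left out. The median SD of 0.11 lay between 0.066 and 0.13 with 1 replicate left out.

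With canonical lengths, which multiply the median protein-coding gene by 0.815, the log2 differences became 0.86 for ACAT2 minus ACAT1, 4.0 for LBR minus TM7SF2, 2.36 for NPC2 minus NPC1 and 0.88 for SREBF2 minus SREBF1, and the range of the enzymes 7.69. A pseudocount of 0.1 gave 4.86 for INSIG1 minus INSIG2. The range of the enzymes was 6.68 without CYP51A1, an alternative chosen after seeing the data. All 6 differences between pairs kept their direction under each alternative tried. Leaving out a replicate could not reverse them, since each had the same direction in every replicate.

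The median log2 difference of replicate 3, -0.089, was 0.082 with protein-coding genes scaled to 1000000 and 0.13 with median-of-ratios scaling. These scalings multiply all genes of a replicate by 1 factor, so the change of sign is that of the zero point and not of the group against other genes. Relative to the line on GC content, chosen after seeing the data, the median over the 30 genes was 0.13. The line itself lies below 0 for all 30 genes, which changes the zero point. Against the same line the median of the 8364 protein-coding genes with at least 10 TPM was -0.0095. Of the 30 means, 26 moved by over 1 SD with canonical lengths, 6 of them upward, and 25 with protein-coding genes scaled, all upward. The latter scaling multiplied the median protein-coding gene by 1.15, so these moves are not of the group against other genes. HSD17B7 moved from 26 to 42.9 TPM with canonical lengths. Depth limits MYLIP, TM7SF2, INSIG2 and CYP51A1, with 45 to 151 reads in a replicate.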
